A study of Homo sapiens with 32 samples.

Results

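The loci described here are those of 8 human genes of the intestinal brush border: VIL1, MYO1A, EPS8L3, CDHR2, CDHR5, CDH17, LGALS4 and GPA33. In each of 18 peak lists of the transcription factor HNF4α, every peak whose summit, its highest point, lay within 50 kb of the GRCh38 span of 1 of these genes was taken. Positions called below or above a gene have lower or higher coordinates than its span. Overlapping peaks of the lists were merged into sites, which gave 88 sites at the 8 loci out of 78729 sites in all, and the 8 genes were 8 of 20037 protein-coding genes.

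The brush border is the dense carpet of microvilli on the apical face of absorptive enterocytes. Each microvillus is held up by a bundle of actin filaments, tied to the membrane by motor proteins and to its neighbours by protocadherin links at the tips. HNF4α is a nuclear receptor of liver, gut and pancreatic epithelium, and intestinal genes of this kind are among its known targets in the gut. Transcription of its gene starts at either of the promoters called P1 and P2, and the resulting proteins differ at their N-terminus.

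Binding was mapped by chromatin immunoprecipitation and sequencing in 3 human pancreatic ductal adenocarcinoma lines, with 9 groups of 2 lists. Panc10.05 cells carried a doxycycline-inducible P1-α2 isoform (25 ng/mL doxycycline) or P2-α8 isoform (12.5 ng/mL), so isoform and dose cannot be told apart in that line. BxPC3 cells carried the same P1-α2 or P2-α8 constructs, both at 500 ng/mL. ASPC1 cells were not induced: their own HNF4α was studied under CRISPR interference with a control guide (sgNC), a guide against the P1 promoter (sgP1) or a guide against the P2 promoter (sgP2). The titles name 1 guide for each promoter. These 7 groups were precipitated with an antibody against all HNF4α, called the pan antibody below. The sgNC and sgP2 cells were also precipitated with an antibody against P1 isoforms only. For BxPC3 P2-α8 the genotype label was used, although the titles write P1 beside α8. An uninduced immunoprecipitate of Panc10.05 or BxPC3 was not analysed here, and the 14 input libraries were not used.

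Lists held 11686 to 41808 peaks with the pan antibody and 260 to 5200 with the P1 antibody. The lowest −log10 q of a peak (q being the peak caller's p-value adjusted for multiple testing) was about 8 in the lists from induced cells and about 2 in those from ASPC1. Comparisons of ASPC1 with the induced lines were therefore made on peaks with a −log10 q of at least 8 in every list. The library names of each line begin with a number of their own. Line, induction, doxycycline dose and any batch that this number marks therefore cannot be told apart. Fold enrichment is the authors' own value for each peak. It is used here only to describe or rank peaks within a list, as a percentile in which 100 is the strongest peak of that list. Percentiles were taken over all rows, which in ASPC1 include peaks with a −log10 q below 8. In sgNC replicate 1 with the pan antibody, for example, 16984 of 24295 peaks reached 8. Percentiles of ASPC1 and of the induced lists are therefore not on equal terms. Where a list has more than 1 peak in a site, the values are those of the strongest. Where nothing in the labels says that the 2 replicates were separate cultures, p-values measure only the spread between these lists.

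RefSeq (GRCh38.p14) gave promoter windows for 5 of the 8 genes: LGALS4, GPA33, CDHR2, EPS8L3 and MYO1A. The stretches below are the 250 bases before the transcript start at which the 6 ASPC1 pan lists had a peak over or beside that start, and they are shown because the reading of the ASPC1 peaks below turns on these starts. They are written 5′ to 3′ on the strand of the gene, in lower case, with capitals for a match to a searched motif. LGALS4 is on the minus strand at chr19:38812946-38813195, GPA33 on the minus strand at chr1:167090378-167090627 and CDHR2 on the plus strand at chr5:176549092-176549341, ahead of the second of its RefSeq starts. EPS8L3 is on the minus strand at chr1:109763924-109764173 and MYO1A on the minus strand at chr12:57050130-57050379, again ahead of the second of its starts.
LGALS4: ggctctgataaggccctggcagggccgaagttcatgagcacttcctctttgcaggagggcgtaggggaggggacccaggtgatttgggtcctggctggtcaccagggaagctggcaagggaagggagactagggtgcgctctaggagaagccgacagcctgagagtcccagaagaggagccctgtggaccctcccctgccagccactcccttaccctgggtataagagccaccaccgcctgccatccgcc
GPA33: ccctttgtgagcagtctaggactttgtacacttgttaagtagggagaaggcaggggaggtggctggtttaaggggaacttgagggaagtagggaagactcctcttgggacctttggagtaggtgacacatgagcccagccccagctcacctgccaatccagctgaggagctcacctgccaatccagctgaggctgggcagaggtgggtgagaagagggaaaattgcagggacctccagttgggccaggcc
CDHR2: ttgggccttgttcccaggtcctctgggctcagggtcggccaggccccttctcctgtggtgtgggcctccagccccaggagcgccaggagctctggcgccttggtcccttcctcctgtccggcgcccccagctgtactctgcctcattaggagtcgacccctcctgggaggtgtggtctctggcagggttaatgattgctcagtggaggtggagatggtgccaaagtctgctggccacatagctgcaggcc
EPS8L3: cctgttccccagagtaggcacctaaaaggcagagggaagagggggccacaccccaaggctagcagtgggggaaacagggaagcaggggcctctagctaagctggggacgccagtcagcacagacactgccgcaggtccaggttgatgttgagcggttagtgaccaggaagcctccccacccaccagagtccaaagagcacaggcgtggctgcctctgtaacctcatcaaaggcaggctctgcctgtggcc
MYO1A: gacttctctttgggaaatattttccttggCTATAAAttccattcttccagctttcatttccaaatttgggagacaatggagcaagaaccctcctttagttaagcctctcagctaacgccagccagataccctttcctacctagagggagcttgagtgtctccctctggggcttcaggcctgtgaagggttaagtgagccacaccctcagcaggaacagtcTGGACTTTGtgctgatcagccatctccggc

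The motifs searched on both strands were CAAAGTCCA, CAAAGGTCA and CAAAGTTCA for HNF4, TTTATNG for CDX, the HNF1 motif by its usual spelling and AGATAA for GATA. In the MYO1A stretch, TGGACTTTG, the reverse complement of CAAAGTCCA, began 30 bases before the start, and CTATAAA, the reverse complement of a CDX match that also holds the letters TATAAA, began 221 bases before it. These matches do not overlap. CAAAGTCCA was in 0.384% of 35116 promoter windows of 300 bases, any of the HNF4 spellings in 1.08%, and TTTATNG in 9.73%. The other 4 stretches held none of these exact letter strings, and strings with a mismatch were not searched.

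All 8 loci had a peak within 50 kb in nearly every group. A peak within 50 kb was found in both lists for 8 of 8 loci with Panc10.05 P1-α2 (74.5% of all genes), Panc10.05 P2-α8 (79.5%) and BxPC3 P1-α2 (76.6%). It was found for 7 of 8 with BxPC3 P2-α8 (45.4%), the exception being MYO1A. In ASPC1 it was found for 8 of 8 with sgNC (58.5%), sgP1 (50.6%) and sgP2 (52.0%). With the P1 antibody it was found for 8 of 8 in sgP2 cells (23.7%) and for 0 of 8 in sgNC cells (2.31%), where 1 of the lists held 260 peaks and none at these loci. With a window of 10 kb the loci numbered 6 in each Panc10.05 group and 5 in each BxPC3 group, and stayed at 8 in each ASPC1 pan group. The shares of all genes were not taken at that window, so these counts cannot be read as a trait of the 8 loci. At 50 kb, the median over the 8 loci was 2 to 8.5 peaks in a pan list, and over all genes 1 to 3. The windows are gene-rich: 1 (CDH17) to 6 (CDHR5, MYO1A) other protein-coding genes reached into each, and for 37 of the 88 sites the member was the nearest coding gene, so most sites cannot be assigned to the member by distance.

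VIL1 encodes villin, which bundles and severs the actin filaments of the microvillus core. Its locus (chromosome 2, 218419123 to 218453295) had 10 sites. The lists of Panc10.05 held 9 and 11 peaks with P1-α2 and 8 and 10 with P2-α8, those of BxPC3 6 and 3 with P1-α2 and 2 and 2 with P2-α8, and those of ASPC1 10 and 6 with sgNC, 9 and 8 with sgP1 and 9 and 9 with sgP2. Every Panc10.05 list was above every BxPC3 list, and ASPC1 overlapped both. The site with the highest mean percentile at the locus (over the 14 pan lists, with 0 for a list without the peak) lay inside the gene, 25.8 kb from its low-coordinate end (218444362 to 218446553), and was found in all 14 pan lists at percentiles of 56.2 to 99.1.

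A further VIL1 site sat at the low-coordinate end of the gene span (218418692 to 218420100), with summits 0 to 55 bases from it in pan lists. Its fold enrichment was 28.8 and 32.6 with Panc10.05 P1-α2, 10.11 and 10.6 with Panc10.05 P2-α8, 8.55 and 7.93 with BxPC3 P1-α2, and 15.0 in 1 BxPC3 P2-α8 list, with no peak in the other. In ASPC1 it was 38.2 and 22.8 with sgNC, 24.1 and 23.7 with sgP1 and 18.3 and 24.8 with sgP2. The site was thus in 13 of 14 pan lists. Within its own list it ranked at the 91.2 to 98.5 percentile in each ASPC1 list and between 22.6 and 88.8 in the induced lists. The ASPC1 ranks include peaks with a −log10 q below 8, which the induced lists do not hold.

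MYO1A encodes the myosin motor that links the actin core to the microvillus membrane. Its locus (chromosome 12, 57028517 to 57051198) had 10 sites, and only 2 of them had MYO1A as the nearest coding gene. Panc10.05 lists held 4 and 5 peaks with P1-α2 and 7 and 6 with P2-α8, BxPC3 lists 3 and 3 with P1-α2 and 0 and 1 with P2-α8, and ASPC1 lists 5 and 3, 3 and 3, and 4 and 4 with sgNC, sgP1 and sgP2. As for VIL1, no BxPC3 list reached the lowest Panc10.05 list.

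At the 5′ end of MYO1A (57048192 to 57050597) all 6 ASPC1 pan lists had a peak over the second RefSeq start, whose upstream stretch is printed above, among their strongest peaks. Fold enrichment was 30.7 and 21.5 with sgNC, 24.6 and 22.9 with sgP1 and 14.2 and 19.8 with sgP2, at percentiles of 84.7 to 96.7. The strongest summit lay 37 and 74 bases upstream of the start in sgNC replicate 2 and sgP2 replicate 1, in the stretch that holds the HNF4 letters, and 996 to 1004 bases downstream of it in the other 4. Both sgP2 lists had a further peak in this site: in replicate 2 it had 18.09-fold enrichment and a summit 30 bases upstream of the start, and in replicate 1 it had 12.9-fold enrichment and a summit 984 bases downstream. Of the 6 ASPC1 pan lists 3 therefore had a summit at this start. Of the induced lists, Panc10.05 P1-α2 replicate 2 (13.9-fold, summit 68 bases upstream) and Panc10.05 P2-α8 replicate 1 (7.62-fold, 10 bases upstream) had a peak there, and no BxPC3 list did. The site with the highest mean percentile of the locus was a distal one, 38.2 kb beyond the high-coordinate end and nearest to NAB2, found in all 4 Panc10.05 lists, 2 BxPC3 lists and all 6 ASPC1 pan lists.

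EPS8L3 encodes a relative of EPS8, a protein that caps and bundles actin at microvillus tips. Its locus (chromosome 1, 109750080 to 109763923) had 11 sites. It held 3 and 4 peaks with Panc10.05 P1-α2, 9 and 6 with Panc10.05 P2-α8, 4 and 4 with BxPC3 P1-α2, 2 and 1 with BxPC3 P2-α8, and 1 to 4 in the ASPC1 pan lists. The ASPC1 lists therefore did not stand above the induced lists by number of peaks here.

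Despite those low counts, the start of EPS8L3 (109762920 to 109764598) was bound in all 14 pan lists. The fold enrichment was 15.97 and 17.7 with Panc10.05 P1-α2, 8.36 and 8.81 with Panc10.05 P2-α8, 16.6 and 8.42 with BxPC3 P1-α2 and 11.1 and 7.73 with BxPC3 P2-α8. In ASPC1 it was 55.3 and 34.7 with sgNC, 21.9 and 31.5 with sgP1 and 30.3 and 34.5 with sgP2. Summits lay 33 to 271 bases upstream of the start, within the stretch printed above in 13 of the 14 lists. The peak ranked at the 94.8 to 99.6 percentile of each ASPC1 list and at the 15.6 to 77.3 percentile of each induced list. As at VIL1, the ASPC1 ranks include peaks with a −log10 q below 8.

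CDHR2 encodes a protocadherin of the links between microvillus tips, and its partner in those links is encoded by CDHR5. The CDHR2 locus (chromosome 5, 176542511 to 176595974) had 13 sites, with 3 and 7 peaks in Panc10.05 P1-α2, 9 and 9 in Panc10.05 P2-α8, 6 and 5 in BxPC3 P1-α2, 4 and 2 in BxPC3 P2-α8, and 9 and 4, 4 and 5, and 5 and 8 in ASPC1 with sgNC, sgP1 and sgP2. A pair of sites inside the gene, 3.38 kb and 10.9 kb from its low-coordinate end, was found in all 14 pan lists. The first of them (176544189 to 176547275) had the highest mean percentile of the locus, with percentiles of 44.5 to 99.5. A further site, at the second RefSeq start (176548704 to 176550374), was in all 6 ASPC1 pan lists, with fold enrichment of 10.14 and 12.5 with sgNC, 6.72 and 8.36 with sgP1 and 5.40 and 8.69 with sgP2. Summits there lay within 114 bases of the start. One induced list, Panc10.05 P2-α8 replicate 2, had a peak at this site, with its summit 640 bases away from the start.

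The CDHR5 locus (chromosome 11, 616583 to 624955) had 15 sites, of which 1 had CDHR5 as the nearest coding gene. Panc10.05 lists held 6 and 9 peaks with P1-α2 and 10 and 6 with P2-α8, BxPC3 lists 4 and 4 and then 2 and 3, and ASPC1 lists 12 and 4 with sgNC, 3 and 4 with sgP1 and 3 and 7 with sgP2. Again each Panc10.05 list was above each BxPC3 list. The 1 site nearest to CDHR5 (623756 to 625689) had summits 36 to 85 bases beyond the high-coordinate end of the gene in all 6 ASPC1 pan lists, with fold enrichment of 10.8 to 21.1. In Panc10.05 P1-α2 replicate 2 and P2-α8 replicate 1 the summit fell 891 and 905 bases inside the gene, and no BxPC3 list had a peak there. The site of highest mean percentile, 28.5 kb outside the gene and nearest to PHRF1, was in all 14 pan lists.

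CDH17 encodes liver-intestine cadherin, an adhesion protein of the enterocyte's lateral membrane. Its locus (chromosome 8, 94127162 to 94217278) had 14 sites, 10 of them nearest to CDH17. It held 3 and 4 peaks with Panc10.05 P1-α2, 5 and 4 with Panc10.05 P2-α8, 4 and 3 with BxPC3 P1-α2, 2 and 3 with BxPC3 P2-α8, 11 and 10 with sgNC, 7 and 6 with sgP1 and 7 and 8 with sgP2. Each ASPC1 list was above each induced list, also on peaks with a −log10 q of at least 8 scaled to the length of the list (below).

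Within CDH17, 71.5 kb from its low-coordinate end, a site (94198348 to 94199036) was found in all 14 pan lists at percentiles of 50.2 to 99.3. A site 65.0 kb from that end (94191616 to 94192453) was found in no induced list and in all 6 ASPC1 pan lists, with fold enrichment of 27.2 and 19.9 with sgNC, 15.4 and 17.3 with sgP1 and 21.1 and 20.1 with sgP2, at percentiles of 87.8 to 95.5. A pair of further sites, 73.0 kb from the low-coordinate end and 17.3 kb beyond the high-coordinate end, had the same distribution at lower percentiles (35.7 to 85.8). The distal site with the highest mean percentile, 25.0 kb beyond the high-coordinate end and nearest to GEM, was again in all 14 pan lists.

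LGALS4 encodes galectin-4, a lectin of the lipid rafts that hold brush border enzymes at the apical surface. Its locus (chromosome 19, 38801674 to 38812945) had 10 sites, 1 of them nearest to LGALS4. It held 3 and 4 peaks with Panc10.05 P1-α2, 5 and 4 with Panc10.05 P2-α8, 2 and 3 with BxPC3 P1-α2, 2 and 2 with BxPC3 P2-α8, 8 and 7 with sgNC, 4 and 4 with sgP1 and 6 and 6 with sgP2. The site of highest mean percentile lay 6.41 kb above the gene, nearest to ECH1 (38818758 to 38820453), and was in all 6 ASPC1 pan lists at percentiles of 79.2 to 98.6, in all 4 Panc10.05 lists at 10.97 to 83.7 and in 2 of 4 BxPC3 lists at 41.0 and 73.3. These percentiles, too, are over all rows of each list. Beside this shared site, ASPC1 and the induced lists each marked sites that the other did not.

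The 1 site nearest to LGALS4 lay at its start (38812151 to 38813618). It was in all 6 ASPC1 pan lists, with fold enrichment of 27.0 and 19.7 with sgNC, 14.6 and 16.5 with sgP1 and 11.8 and 20.7 with sgP2, at percentiles of 78.4 to 95.4. Summits lay 233 to 262 bases upstream of the start, around the far end of the stretch printed above and within it in 4 of the 6 lists. No induced list had a peak at this site. The site 42.0 kb below the gene, nearest to LGALS7, had the same distribution. A site 44.7 kb above it, nearest to HNRNPL (38857301 to 38858622), had the opposite one: it was in all 8 induced lists, at percentiles of 34.0 to 94.4, and in no ASPC1 list.

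GPA33 encodes the A33 antigen, an immunoglobulin-family protein of the intestinal epithelial surface. Its locus (chromosome 1, 167052836 to 167090377) had the fewest sites, 5, with 1 to 2 peaks in each induced list and 3 to 4 in each ASPC1 pan list. A site inside the gene, 7.55 kb from its start (167082338 to 167083339), was in all 14 pan lists and had the highest mean percentile of all 88 sites, 92.9. Its fold enrichment was 45.7 and 46.6 with Panc10.05 P1-α2, 36.9 and 24.7 with Panc10.05 P2-α8, 17.9 and 16.5 with BxPC3 P1-α2, 16.4 and 10.6 with BxPC3 P2-α8, 57.1 and 34.0 with sgNC, 24.5 and 32.6 with sgP1 and 37.4 and 27.1 with sgP2. The site at its start (167090154 to 167090941) was in all 6 ASPC1 pan lists, with fold enrichment of 7.78 to 19.7 and summits 189 to 253 bases upstream, and in 1 induced list, BxPC3 P1-α2 replicate 1 (9.97-fold).

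**Figure D1:**
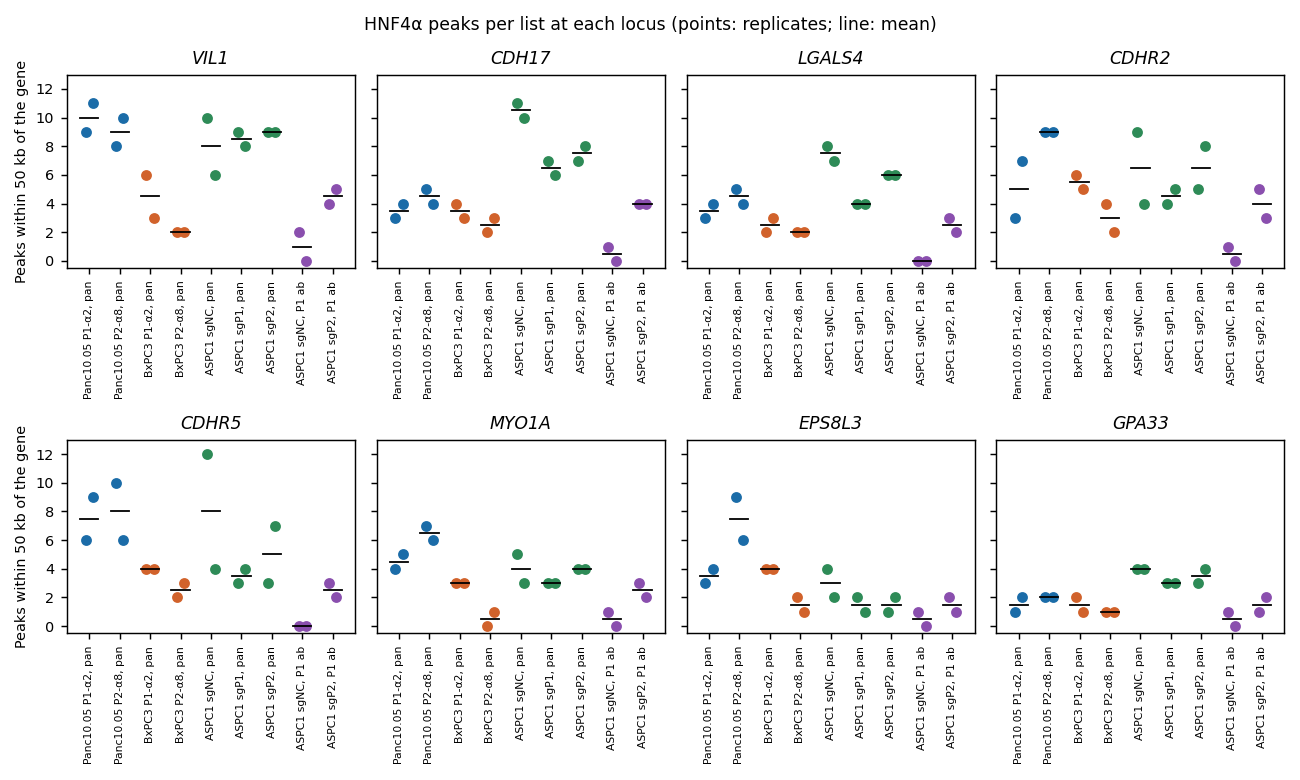
Number of HNF4α peaks within 50 kb of each gene, 1 point per list, with the mean of the 2 lists as a line, by group (pan or P1 antibody). At VIL1, CDHR5 and MYO1A all 4 Panc10.05 lists lie above all 4 BxPC3 lists.

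**Figure D2:**
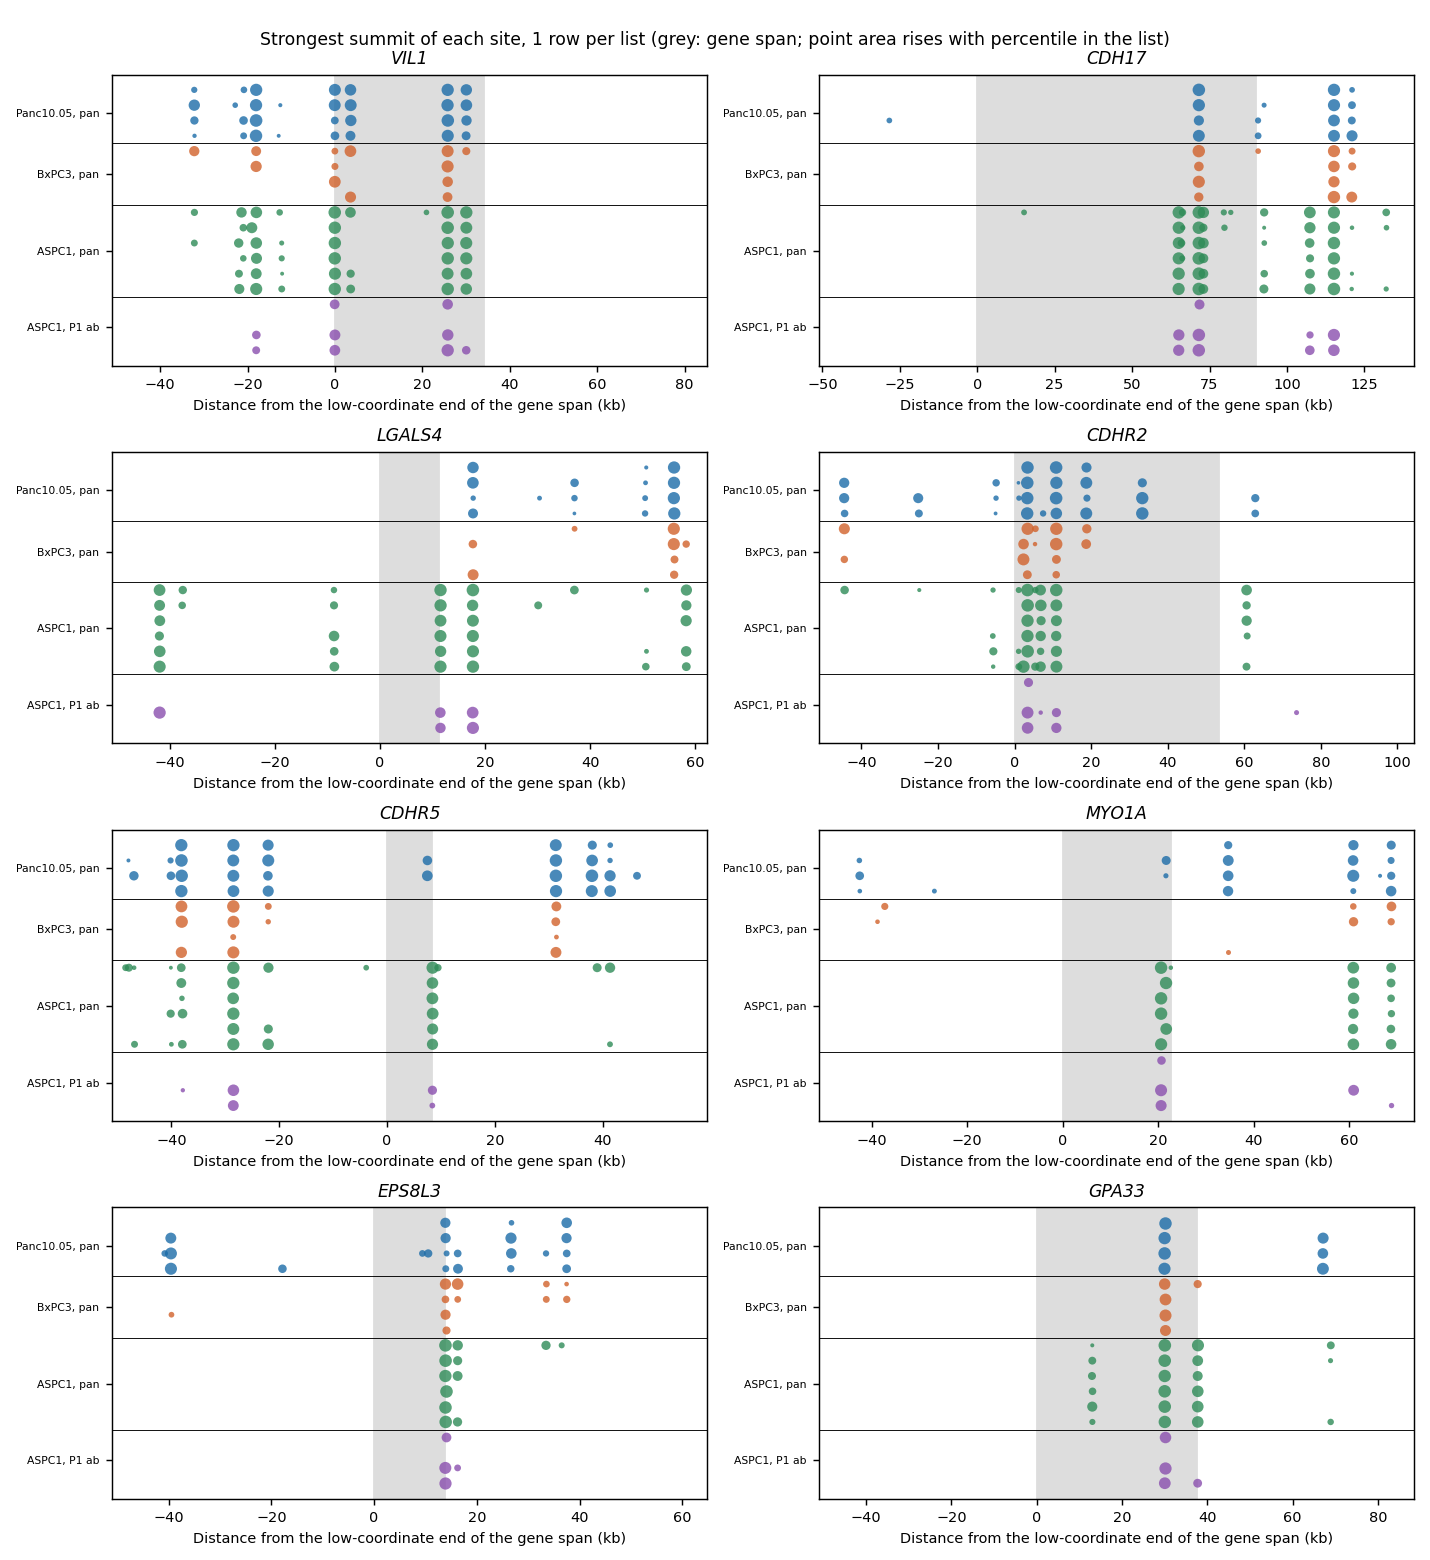
Position of the strongest summit of each site in each list, as distance from the low-coordinate end of the gene span in kb, 1 row per list, with point area rising with the percentile of fold enrichment in the list and the gene span in grey. The columns of points at the 5′ end of LGALS4, MYO1A and GPA33 are full in the 6 ASPC1 pan lists and filled only in part in the P1-antibody lists. They are empty or nearly empty in the induced lines, whereas that of EPS8L3 is present in all 14 pan lists.

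Between the lines, the loci shared a core of sites and differed in the rest. On peaks with a −log10 q of at least 8, 8 of 78 member sites were in all 14 pan lists, against 2.81% of all sites. Those 8 lay at 6 loci (VIL1, CDH17, CDHR2, CDHR5, EPS8L3 and GPA33). In all 6 ASPC1 pan lists and no induced list were 5 of 78, against 0.826% of all sites, and all 5 were at CDH17 or LGALS4. In all 8 induced lists and no ASPC1 list were 2 of 78, against 3.03%, at LGALS4 and CDHR5. In all 4 Panc10.05 lists and no ASPC1 list were 10 of 78, against 14.9%. With all rows of every list these counts were 8 (against 2.98%), 6 (1.19%), 2 (2.45%) and 7 (12.3%), and the site added to the second was in GPA33. No test was made on these counts, since the genes were chosen with results of these lists known.

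Gene starts could be compared for the 5 genes with a RefSeq window, and no test was made on these counts. A summit within 1 kb of a start, at a −log10 q of at least 8, was present in all 6 ASPC1 pan lists for 4 of 5 (LGALS4, CDHR2, EPS8L3 and GPA33), against 5.14% of 15843 genes. It was present in all 8 induced lists for 1 of 5, EPS8L3, against 2.03%. In all 6 ASPC1 lists and at most 2 induced lists it was present for 3 of 5 (LGALS4, CDHR2 and GPA33), against 0.606%. LGALS4 alone of the 5 had it in all 6 ASPC1 lists and in no induced list, against 0.290%, and 0 of 5 had the opposite distribution, against 0.208%. With all rows of every list the same genes met each of these counts, against 7.13%, 2.03%, 1.04%, 0.448% and 0.126%. MYO1A was left out of the first count because the summits of some lists lay just beyond 1 kb from its start, although a peak of each ASPC1 pan list covered that start.

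Scaled to the length of the list, with all rows, the 8 loci together held 24.9 to 31.8 of every 10000 peaks in ASPC1 pan lists. They held 12.9 to 14.1 in Panc10.05 and 7.41 to 11.8 in BxPC3. The 6 ASPC1 lists did not overlap the 8 induced lists, and with the q threshold of 8 the ASPC1 values were 25.9 to 37.2. By gene, at that threshold, in a comparison chosen after the data were seen, all 6 ASPC1 lists were above all 8 induced lists at 5 of 8 loci (CDH17, LGALS4, CDHR2, MYO1A and GPA33), against 10.9% of 18674 genes, and below them at 0 of 8, against 7.73%. CDH17 had 5.30 to 7.32 peaks per 10000 in ASPC1 and 0.889 to 2.05 in the induced lists. For EPS8L3 the ranges were 1.09 to 2.09 and 0.682 to 2.30 and overlapped. With all rows of every list, the loci above were again 5, against 10.3% of genes, with VIL1 in place of CDHR2, and those below 0, against 5.66%.

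**Figure D3:**
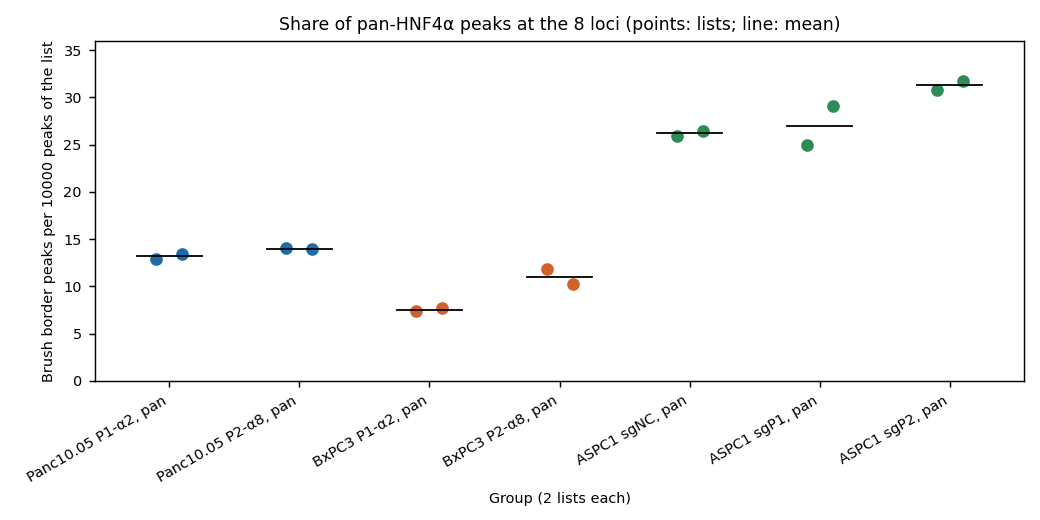
Peaks at the 8 loci per 10000 peaks of the list, for the 14 pan lists (points) with the mean of each group (line). All 6 ASPC1 lists, at 24.9 to 31.8, lie above all 8 induced lists, at 7.41 to 14.1.

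Panc10.05 and BxPC3, whose lists have the same lowest q, could be tested against each other over 18569 genes by a two-sided exact permutation test of 4 against 4 lists, in which the smallest p is 0.0286. The 4 lists of a line are 2 with P1-α2 and 2 with P2-α8, so the SD also holds differences between the isoform groups. Line and doxycycline dose differ together in this test. VIL1 had 9.50 ± 1.29 peaks in Panc10.05 and 3.25 ± 1.89 in BxPC3 (SD, n = 4 each). CDHR5 had 7.75 ± 2.06 and 3.25 ± 0.957, and MYO1A 5.50 ± 1.29 and 1.75 ± 1.5. Each of these 3 differences reached the exact permutation p of 0.0286, which became 0.185 after Benjamini-Hochberg adjustment over all genes. None of the 18569 genes passed an adjusted p of 0.05, whereas 2867 had an unadjusted p under 0.05. All Panc10.05 lists were above all BxPC3 lists at these 3 of 8 loci, against 13.9% of all genes, and below them at 0 of 8, against 1.51%. The median difference was 2.75 peaks over the 8 loci and 0.750 over all genes.

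At the other 5 loci the lines overlapped. LGALS4 had 4.00 ± 0.816 peaks in Panc10.05 and 2.25 ± 0.500 in BxPC3 (SD, n = 4 each, exact permutation p = 0.0571). CDHR2, EPS8L3, CDH17 and GPA33 had unadjusted p of 0.171 to 0.486. When counts were scaled to list length, VIL1 and MYO1A kept a p of 0.0286, CDHR5 had 0.0571, and the small differences at CDH17 and GPA33 turned in sign (−0.155 and −0.0377 peaks per 10000). With all 8 lists at 12681 peaks, VIL1 lost its separation (exact permutation p = 0.143) and CDHR5 and MYO1A kept theirs. The same held at a −log10 q of at least 20, where VIL1 had an exact permutation p of 0.0571. With a window of 10 kb none of the 3 kept its separation: the difference fell to 2.25 peaks at VIL1 (exact permutation p = 0.0571), and to 0.5 at CDHR5 and at MYO1A (exact permutation p = 0.429 each). By site, 5 of 78 member sites were in all 4 Panc10.05 lists and no BxPC3 list, against 5.20% of all sites, and 0 were in all 4 BxPC3 lists and no Panc10.05 list, against 1.96%. With all rows the counts were again 5 and 0, against 4.86% and 1.83%.

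Shares of member sites found with a single isoform did not stand above those of all sites, and list length moved with them. With 2 against 2 lists in a line, an exact test cannot go below 0.333, so sites found in both lists of one isoform and in neither list of the other were counted. In Panc10.05, 0 of 60 member sites were found only with P1-α2, against 3.63% of all sites, and 4 only with P2-α8, against 10.9%. The 3 of highest mean percentile were a site 25.0 kb below CDHR2 (fold enrichment in replicate 1 of 13.9), a site 2.43 kb beyond the start of EPS8L3 (10.11) and a site 9.43 kb above CDHR2 (10.7). In BxPC3, 9 of 35 were found only with P1-α2, against 28.3%, and 0 only with P2-α8, against 0.130%.

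The BxPC3 P1-α2 sites included the VIL1 site 18 kb below the gene (fold enrichment in replicate 1 of 12.6), a site 18.8 kb into CDHR2 (11.53) and the same site beyond the start of EPS8L3 (18.4). That EPS8L3 site (109766120 to 109766574) was therefore found only with P2-α8 in Panc10.05 and only with P1-α2 in BxPC3. The BxPC3 P1-α2 lists held 33737 and 41808 peaks and the P2-α8 lists 12681 and 14666. At equal length, P1-α2 alone had 0 of these sites and P2-α8 alone 1. In Panc10.05 at equal length the counts were 1 and 2. Without Panc10.05 P1-α2 replicate 1, the P1-α2 count was 3, and without P2-α8 replicate 2, P2-α8 replicate 1 or P1-α2 replicate 2 the P2-α8 count was 13, 8 or 11. Without BxPC3 P1-α2 replicate 2 the P1-α2 count was 15, and without either BxPC3 P2-α8 list the P2-α8 count was 1. In all 4 lists of the line were 29 of 60 member sites in Panc10.05 (48.3%, against 38.1% of all sites) and 10 of 35 in BxPC3 (28.6%, against 18.4%).

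Over both lines together, isoform labels were permuted within line (36 labellings). The smallest possible exact p is 0.0556, so none of the 18569 genes could have an unadjusted or adjusted p under 0.05. The smallest exact permutation p at a member was 0.222. The median difference was 0 peaks over the 8 loci and 0.500 over all genes. All 4 P1-α2 lists lay above all 4 P2-α8 lists at 0 of 8 loci, against 1.19% of genes, and below them at 0 of 8, against 0.00539%. The largest mean difference at a member was at VIL1, 7.25 ± 3.50 with P1-α2 and 5.50 ± 4.12 with P2-α8 (SD, n = 4 each, exact permutation p = 0.222). At CDHR2, MYO1A and EPS8L3 both P1-α2 lists lay below both P2-α8 lists in Panc10.05 and above them in BxPC3, a pattern of 16.9% of all genes. At equal list length it was found in 0.846% of genes, and at 0 of these 3 loci.

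In ASPC1, no site at these loci was found only with sgP1 or only with sgP2 when set against sgNC, and the few found only with sgNC ranked low in their lists. Both comparisons use the same sgNC lists. Against sgNC, 0 of 63 member sites were found only with sgP1 (0.408% of all sites) and 4 only with sgNC (9.06%). Against sgNC, 0 of 63 were found only with sgP2 (0.414%) and 3 only with sgNC (7.27%). The sites found only with sgNC were at LGALS4, CDH17 and GPA33, with mean percentiles of 18.3 to 34.5 in their lists. A site 37.6 kb below LGALS4, at 5.88-fold in sgNC replicate 1, and a site inside CDH17, at 4.49-fold, were in both sets. Against sgP1 alone, sites beyond the ends of CDH17 (5.32-fold) and GPA33 (5.48-fold) were added, and against sgP2 alone a second site inside CDH17 (5.12-fold).

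List length moved with these counts: the sgNC lists held 24295 and 15118 peaks, the sgP1 lists 14038 and 11686 and the sgP2 lists 12345 and 15116. At equal length 0 sites were found only with sgNC in either comparison, 1 only with sgP1 and 3 only with sgP2. Without sgNC replicate 2, the sites found only with sgNC numbered 25 against sgP1 and 18 against sgP2. Without sgP1 replicate 1 the first of these was 7, and without sgP2 replicate 2 the second was 8. Without sgNC replicate 1, 1 site was found only with sgP1 and 6 only with sgP2, and without sgNC replicate 2, 1 only with sgP2. In all 4 lists were 28 of 63 member sites in either comparison (44.4%), against 32.4% of all sites for sgP1 and 34.4% for sgP2.

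Between the guides, 1 of 46 member sites was found only with sgP1 (2.76% of all sites), a site inside CDH17 66.2 kb from its low-coordinate end. Found only with sgP2 were 5 of 46 (4.39%), each at a different locus (VIL1, CDH17, LGALS4, CDHR2 and CDHR5). The site of highest mean percentile among them, 63.7, lay 22.0 kb below CDHR5, the next, at 40.9, lay 3.56 kb inside VIL1, and that at 18.7 lay 39.3 kb above LGALS4. Without sgP1 replicate 2 or sgP2 replicate 2 the sgP1 count was 2 or 3, and without sgP2 replicate 1 the sgP2 count was 10. In all 4 lists of these guides were 26 of 46 (56.5%, against 38.7%).

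**Figure D4:**
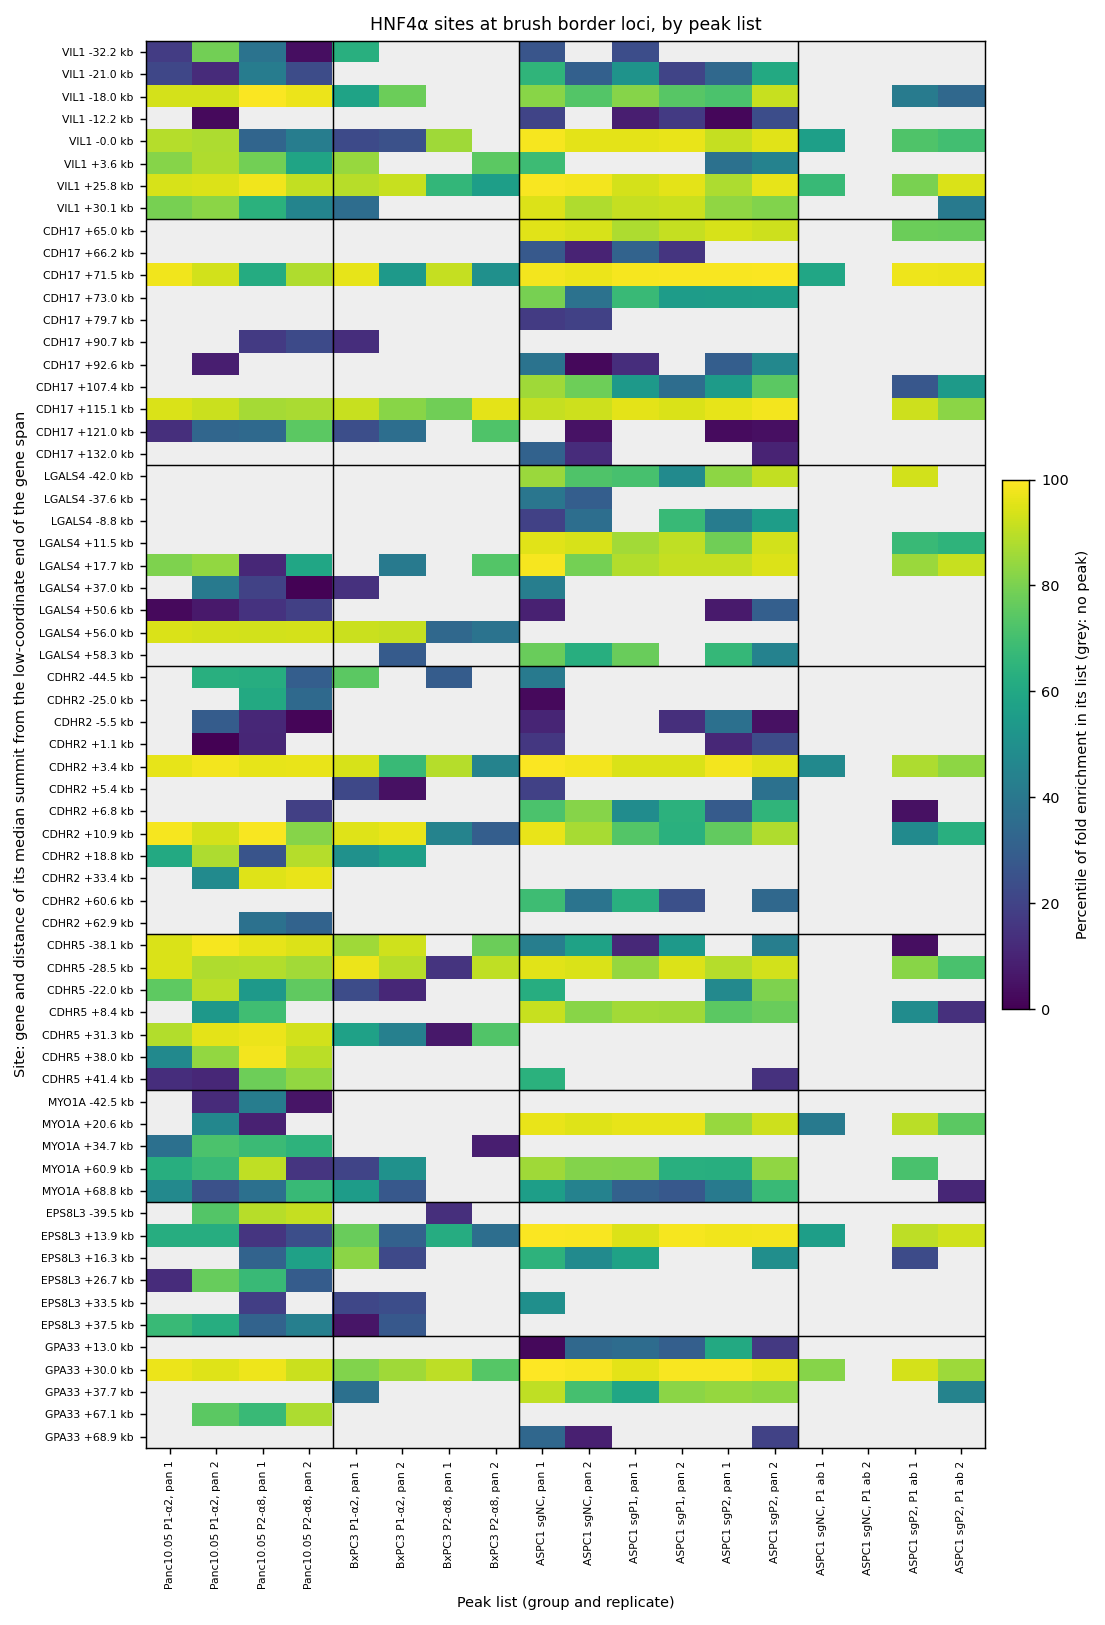
Percentile of fold enrichment within its list (colour, grey where the list has no peak) for the 63 of 88 sites found in both lists of at least 1 group, by gene and distance from the low-coordinate end of the gene span (rows) and by list (columns). Rows filled from left to right are sites shared by all 14 pan lists, and rows filled in all 6 ASPC1 pan lists and no induced list are seen at CDH17, LGALS4 and GPA33. Peaks of every q in the lists are drawn. At a −log10 q of at least 8, that GPA33 site was in 2 ASPC1 pan lists.

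With the antibody against P1 isoforms, the sgP2 cells showed binding at all 8 loci and the sgNC cells little. The lists held 25 and 21 member peaks in sgP2 cells and 7 and 0 in sgNC cells. As sites, 9 of 25 were found in both sgP2 lists and neither sgNC list, against 36.5% of all sites, a share close to the background, and 0 of 25 the other way, against 0.0655%. The 3 of highest mean percentile were the site above LGALS4 nearest to ECH1 (12.3-fold in replicate 1), the distal CDH17 site nearest to GEM (16.2-fold) and the CDH17 site found only in ASPC1 (10.4-fold).

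The lists differ in length by far, 5200 and 3916 peaks with sgP2 and 697 and 260 with sgNC, and at 260 peaks each only 1 of these sites was left. Without sgP2 replicate 2 the count was 15, and without sgNC replicate 1 it was 16. Loci with a peak in the sgNC list or lists numbered 6 when replicate 2, the list of 260 peaks, was left out.

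Most P1-antibody sites were also pan sites. Of the 22 sites of sgP2 replicate 1, 21 were in a pan list of the same cells, against 88.1% of all sites of that list, and of the 19 of replicate 2, 19, against 96.1%. The 7 sites of sgNC replicate 1 were each in all 6 ASPC1 pan lists and in both sgP2 lists of the P1 antibody, against 83.8% of all its sites: the VIL1 start, the VIL1 site 25.8 kb inside, the shared intragenic sites of CDH17, CDHR2 and GPA33, and the starts of MYO1A and EPS8L3. In both sgP2 lists were 16 sites at 8 loci. All 16 were in all 6 ASPC1 pan lists (97.0% of all such sites), 8 were in all 8 induced lists (51.7%) and 3 in no induced list (7%). The first 2 shares lay near those of all sites. The LGALS4 start was 1 of these 3, at 8.90-fold and 9.03-fold. The EPS8L3 start had 14.6-fold and 16.5-fold with sgP2 and 7.20-fold in sgNC replicate 1, and the MYO1A 5′ site 14.5-fold and 10.4-fold and 6.08-fold.

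Other brush border genes also had HNF4α peaks, and some of the best known had none. Of 18 genes of the microvillus core and its adhesion complex, a peak was found in both lists for 18 with Panc10.05 P1-α2, 18 with Panc10.05 P2-α8, 18 with BxPC3 P1-α2, 14 with BxPC3 P2-α8, 16 with sgNC, 15 with sgP1 and 17 with sgP2. The shares of all genes, in that order, were 74.5%, 79.5%, 76.6%, 45.4%, 58.5%, 50.6% and 52.0%. Summed over the 14 pan lists, which differ in length and line, BAIAP2L1, a membrane-bending partner of EPS8, had 135 peaks, EPS8 109, EZR, which encodes the membrane linker ezrin, 104, and MISP, an actin bundler, 88. The order differed by line: in the Panc10.05 lists EPS8 had 29 peaks and EZR 25, below the 42 of NHERF1, and in the BxPC3 lists EPS8 (34) had more than BAIAP2L1 (24). Of 12 genes of brush border hydrolases, the counts were 10, 10, 10, 8, 6, 7 and 7 in the same order. In most groups they lay near the same shares of all genes. With BxPC3 P2-α8, 8 of 12 lay above the 45.4% of all genes, and with sgNC, 6 of 12 lay below the 58.5%. ANPEP had 118 peaks in that sum, TREH 92, DPP4 70 and MEP1B 58, although in Panc10.05 TREH (42) was above ANPEP (29), whereas SI and LCT, the sucrase-isomaltase and lactase genes, had 0 peaks in each of the 14 pan lists.

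With all rows of every list, a start with a peak in all 6 ASPC1 pan lists and no induced list was found for 0 of the 15 core and adhesion genes and 0 of the 9 hydrolase genes with a RefSeq window, against 0.448% of all genes. Starts bound in all 6 ASPC1 lists numbered 6 of 15 and 2 of 9, against 7.13%, and those bound in all 8 induced lists 3 of 15 (MISP, ANKS4B and CALML4) and 1 of 9 (TREH), against 2.03%. The genes whose peak number followed the summed members most closely were BAIAP2L1 (r = 0.92 over 14 pan lists), EPS8L2 (0.88) and MISP (0.82). The 14 points share list length, which alone raises or lowers all counts, so these values describe the lists and no more.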

How the data were processed

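Chromatin immunoprecipitates of HNF4α from 3 pancreatic ductal adenocarcinoma lines were crosslinked with DSG and formaldehyde and sequenced, per the labels' protocols. Bowtie2 2.2.9, MACS2 2.2.7 and the builds hg38 and mm10 are named, without a role, in the submitters' processing notes. The deposited narrowPeak lists, 1 per library and so not of pooled replicates, hold for each peak a fold enrichment, which is a linear ratio, −log10 p and −log10 q values, and a score. Read depth is unknown, so no counting interval was given, and list length was used in its place.

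Members and lists were chosen with earlier results of these data known. Peaks of all lists were merged into sites where they overlapped by at least 1 base, and a peak belonged to a gene when its summit lay within 50 kb of the RefSeq GRCh38.p14 span. The number of sites and the gene counts of 1 list were checked with bedtools 2.31.1. All members were described. Sites were named by rule: per gene the site of highest mean percentile, sites within 1 kb of a transcript start, and the 3 of highest mean percentile found with a single group in each comparison. Sites found in a single line and other sites in all pan lists were named after their values were seen. Numbers of peaks per gene were tested over all genes with a peak by two-sided exact permutation of lists, with Benjamini-Hochberg adjustment (Python 3.11.15, numpy 2.4.6, pandas 2.3.3, scipy 1.17.1, matplotlib 3.10.9), and the scripts were tested on simulated data. Groups came from the labels. For BxPC3 P2-α8 the genotype label was used. Same-numbered lists had correlations of −0.0694 to 0.0674 in their deviations from group means, which gave no ground to pair them. Alternatives were equal list length, a −log10 q of at least 20, summits within 100 bases, a window of 10 kb, counts per 10000 peaks and leaving out each list.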

Additional observations from a re-analysis of the deposited data

Results flagged for a closer look

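At 3 loci the number of peaks was lower with P1-α2 than with P2-α8 in every list of Panc10.05 and higher in every list of BxPC3, but no difference between the lines was called by an exact permutation test of it (36 labellings, smallest p of 0.0556). CDHR2 had 4 fewer peaks with P1-α2 than with P2-α8 in Panc10.05 and 2.5 more in BxPC3, so the differences were 6.5 peaks apart. EPS8L3 had the same values, 4 fewer, 2.5 more and 6.5 apart, and MYO1A had 2 fewer and 2.5 more, 4.5 apart. Each of the 3 had an exact permutation p of 0.0556, which the pattern itself fixes, and an adjusted p of 0.329. The pattern was found in 16.9% of all genes. With all 8 lists reduced to their strongest 12681 peaks it was found in 0.846% of genes and at none of these 3 loci, where the values were 0.5 (CDHR2), 0.5 (MYO1A) and −1 (EPS8L3). The Panc10.05 P2-α8 lists are longer than the P1-α2 lists on average, and the BxPC3 P2-α8 lists are shorter.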

How the results depend on the processing

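Of the values answering a comparison, 143 stayed within 1.5 times the reported value or on the same side of the threshold and 45 moved. The 143 include the numbers of members with an adjusted p of at most 0.05, which were 0 at every setting. In the isoform test, whose smallest p was never below 0.0556, this 0 was fixed in advance. Of the other values, 214 did not reverse and 15 reversed. These were differences at single genes, where a fall to 0 or a start from 0 was not called reversed, and counts of ASPC1 against the induced lines. At equal list length the sites found in both lists of a group and in neither of the other numbered 1 (Panc10.05 P1-α2), 2 (Panc10.05 P2-α8), 0 (BxPC3 P1-α2), 1 (BxPC3 P2-α8), 1 with sgP1 and 0 with sgNC, 3 with sgP2 and 0 with sgNC, and 1 with sgP2 under the P1 antibody, where 1 locus had a peak in both lists. At a −log10 q of at least 20 they numbered 1 for Panc10.05 P1-α2, 1 for sgNC against sgP1, 0 for sgNC against sgP2, and 0 for sgP1 and 1 for sgP2 between the guides. With sites defined by summits within 100 bases they numbered 1 for Panc10.05 P1-α2, 1 for sgP1 and 2 for sgNC, and 2 for sgP2 and 1 for sgNC. With a window of 10 kb they numbered 3 for BxPC3 P1-α2, 1 for sgNC against sgP1, 2 for sgP2 against sgP1 and 5 for sgP2 under the P1 antibody. Loci with a peak in both lists were then 6 in each Panc10.05 group and 5 in each BxPC3 group.

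Leaving out 1 list at a time gave 0 to 3 sites for Panc10.05 P1-α2, 4 to 13 for Panc10.05 P2-α8, 10 to 15 for BxPC3 P1-α2 and 0 to 1 for BxPC3 P2-α8. It gave 0 to 1 for sgP1 and 5 to 25 for sgNC, 0 to 6 for sgP2 and 3 to 18 for sgNC, 1 to 3 for sgP1 and 5 to 10 for sgP2 between the guides, and 9 to 16 for sgP2 under the P1 antibody. Loci with a peak in both lists ranged from 0 to 6 for sgNC under the P1 antibody and from 7 to 8 for BxPC3 P2-α8.

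Between the lines, the separation at VIL1, CDHR5 and MYO1A was lost with a window of 10 kb (2.25, 0.5 and 0.5 peaks). At VIL1 it was also lost at equal length (2 peaks) and at the q threshold of 20 (5 peaks). GPA33 reversed to −0.25 peaks with a window of 10 kb and to −0.0377 per 10000 peaks, and CDH17 to −0.155 per 10000. Between the isoforms, none past a threshold, CDHR5 reversed to −1 and MYO1A to −0.25 at equal length, LGALS4 to 1 and EPS8L3 to 0.5 at the q threshold of 20, and CDHR5 to −0.192 per 10000. Leaving out 1 list gave −0.5 to 1.5 peaks for CDHR5, below 0 without Panc10.05 P1-α2 replicate 2 (−0.25) or P2-α8 replicate 2, and −1.75 to 0.25 for CDHR2, above 0 without Panc10.05 P1-α2 replicate 1. The isoform difference between lines reversed at equal length for VIL1 (−3), CDH17 (−1), LGALS4 (−2) and EPS8L3 (−1).

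With the replicate number as a block, 16 labellings were left, the smallest exact p was 0.125, and 0 members were called between lines or isoforms. No block was fitted to the counts of sites and loci, which come from no test. The causes of these changes were not tested. Read depth is unknown, so a missing peak shows no absence of binding.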
